A study of Homo sapiens with 6 samples.

Results

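EGFR, its ligand AREG, the early response factors FOSL1 and EGR1 and the MAPK phosphatases DUSP1 and DUSP5 were taken by name from the count table, and all 6 were found among its 770 probes. The table came from the nCounter PanCancer IO 360 panel, in which each RNA molecule is tagged with a colour barcode and counted directly, with no amplification step. The cells carried the label PC3, a prostate carcinoma line grown from a metastasis in bone, and held either a vector with BTN1A1, which encodes a butyrophilin of the cell membrane, or an empty vector (EV). Each vector had 3 libraries: untreated, and treated with 100 ng/ml interferon-gamma for 24 h or for 48 h. The untreated libraries were labelled 48 h, so a 24 h library also differs from its untreated partner in culture time. Each of the 6 groups held 1 library. No source used here says if the transfected cells were a clone or a pool, and the panel had no BTN1A1 probe.

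EGFR is a receptor tyrosine kinase. Binding of a ligand such as amphiregulin (AREG), which is shed from the cell surface, activates RAS and the kinase cascade that ends in ERK. ERK switches on early response genes within minutes to hours: EGR1, a zinc finger factor, FOSL1, a subunit of the AP-1 factor, and the phosphatases DUSP1 and DUSP5, which remove the activating phosphates from MAP kinases in the nucleus and so act as feedback inhibitors. DUSP5 acts mainly on ERK, and DUSP1 also on the stress kinases p38 and JNK.

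Total counts were 221633 to 297242 in the libraries labelled BTN1A1 and 286341 to 441611 in the EV libraries. T, NK, B and myeloid cell markers, 33 probes for cells that these cultures should lack, gave a background: their median was 20 to 22 counts in the libraries labelled BTN1A1 and 17 to 22 in EV, and their 90th percentile was 36.4 to 40.6 in the libraries labelled BTN1A1 and 35.6 to 47 in EV. Their summed scaled level was 604.8 to 925.7 in the libraries labelled BTN1A1 and 721.7 to 960.4 in EV, so it overlapped. PC3 cells are known to lack STAT3. STAT3 had 383, 593 and 444 counts in the libraries labelled BTN1A1, untreated and at 24 h and 48 h, against 20, 10 and 17 in EV. The epithelial genes EPCAM, with 39, 29 and 59 counts, against 235, 242 and 210 in EV, and CDH1, with 28, 26 and 31, against 185, 197 and 145, were near the background in the libraries labelled BTN1A1. MET, also expected in PC3, was lower in the libraries labelled BTN1A1 but well above the background. It had 672, 492 and 492 counts there, against 3482, 4627 and 4877 in EV. EGFR, the other expected gene measured, is given below. By STAT3, EPCAM and CDH1 the EV libraries had the marker pattern of PC3 and the other libraries did not. A difference between the vectors is thus also a difference between cultures that may not share an origin, and these 2 cannot be told apart.

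The table of RefSeq promoters (GRCh38.p14) used here held 4 of the 6 genes, and the 250 bases upstream of the start site were taken from it. Promoters of FOSL1 and DUSP5 were not analysed here. Windows with a match are shown for each of the 4 genes that the table held. Each is written 5′ to 3′ on the gene's strand and ends at the base before the start site. Capitals mark matches to the cAMP response element TGACGTCA, to the AP-1 site TGANTCA, to the CArG box bound by serum response factor, or to the interferon-gamma activated sequence (GAS) TTCNNNGAA, searched on both strands. No matches overlapped.
AREG, chr4:74444886-74445135, + strand: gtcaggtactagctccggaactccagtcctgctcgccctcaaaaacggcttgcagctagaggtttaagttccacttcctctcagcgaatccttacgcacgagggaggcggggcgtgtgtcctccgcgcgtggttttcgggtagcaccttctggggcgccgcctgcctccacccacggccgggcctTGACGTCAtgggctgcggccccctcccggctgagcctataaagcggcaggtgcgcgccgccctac
DUSP1, chr5:172771196-172771445, - strand: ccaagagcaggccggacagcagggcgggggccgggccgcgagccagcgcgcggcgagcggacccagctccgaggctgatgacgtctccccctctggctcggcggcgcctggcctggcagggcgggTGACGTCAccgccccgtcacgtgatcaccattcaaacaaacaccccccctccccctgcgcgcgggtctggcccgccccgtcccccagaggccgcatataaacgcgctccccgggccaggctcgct
EGR1, chr5:138465229-138465478, + strand: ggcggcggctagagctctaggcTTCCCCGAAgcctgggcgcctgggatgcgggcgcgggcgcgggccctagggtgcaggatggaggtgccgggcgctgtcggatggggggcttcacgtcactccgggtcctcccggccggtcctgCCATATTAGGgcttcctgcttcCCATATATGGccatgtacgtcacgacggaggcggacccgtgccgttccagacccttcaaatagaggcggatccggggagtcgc
EGFR, downstream start, chr7:55109589-55109838, + strand: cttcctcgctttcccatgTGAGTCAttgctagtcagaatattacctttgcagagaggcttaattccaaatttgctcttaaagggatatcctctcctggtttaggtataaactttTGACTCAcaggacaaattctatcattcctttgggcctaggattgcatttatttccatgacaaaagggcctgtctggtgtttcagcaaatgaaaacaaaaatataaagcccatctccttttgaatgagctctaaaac
AREG and DUSP1 each held 1 cAMP response element, found in 1.65% of 35116 such windows. EGR1 held 2 CArG boxes, where 1.16% of windows had at least 1, and 1 GAS element, where 6.57% had at least 1. The downstream EGFR start held 2 AP-1 sites, where 6.57% of windows had at least 1. The share of windows with 2 was not computed. The upstream EGFR start, at chr7:55018767-55019016, held none of the 4 motifs. A match is a run of letters and was not tested as a binding site.

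The first comparison asked how the genes differed between the vectors. Receptor, ligand, AP-1 subunit and ERK phosphatase were all lower in the libraries labelled BTN1A1: EGFR, AREG, FOSL1 and DUSP5 passed the test, and EGR1 and DUSP1 did not. That is 4 of 6 lower, where 30.6% of the 669 genes tested were called lower and 11.7% higher. The test was edgeR's quasi-likelihood test on the counts, scaled by 20 housekeeping genes, with the 3 conditions as pairs. Benjamini-Hochberg adjustment ran over all 669 genes, at 0.05. The 3 conditions served as the repeats of a vector, so the p-values measure how steady a gap was over them. Variation between repeat transfections of a vector was not assessed.

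EGFR had 47, 28 and 36 counts in the libraries labelled BTN1A1, untreated and at 24 h and 48 h of interferon-gamma, against 202, 324 and 292 in EV. The groups did not overlap, and the counts in the libraries labelled BTN1A1 lay around the 90th percentile of the background. On scaled counts, 34.5% of the 669 tested genes lay wholly below EV in the libraries labelled BTN1A1, and 17% wholly above. On the scaled log2 scale EGFR was lower by a difference of -2.94 (SE 0.37, edgeR adjusted p = 0.000445). Condition by condition, with 1 library over another, the log2 differences were -2.31, -3.64 and -2.91.

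AREG had 24, 22 and 25 counts in the libraries labelled BTN1A1, against 1042, 530 and 2970 in EV. Every count in the libraries labelled BTN1A1 lay below the 90th percentile of the background, so the difference of -5.71 (log2, SE 0.48, edgeR adjusted p = 6.54e-05) rests on a probe at background in that group. Within EV the AREG level spanned 6.91-fold, a wider span than in all but 43 of the 539 tested genes with at least 20 scaled counts in every EV library.

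FOSL1 had 53, 48 and 46 counts in the libraries labelled BTN1A1, against 6704, 13216 and 11467 in EV. In EV its count was higher than that of 763 to 765 of the 770 probes, although counts of different probes also differ with probe efficiency. The difference was -7.75 (log2, SE 0.35, edgeR adjusted p = 8.84e-06). The libraries labelled BTN1A1 stood only 1.26 to 1.32 times above the 90th percentile of the background.

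DUSP5 had 51, 94 and 46 counts in the libraries labelled BTN1A1, against 2400, 840 and 1694 in EV. These groups did not overlap either, as for 34.5% of tested genes in this direction. The difference was -4.71 (log2, SE 0.53, edgeR adjusted p = 0.000275). The 24 h libraries were the highest in one vector and the lowest in the other, so the gap between the vectors was smallest there, at -3.27, against -5.76 untreated and -5.09 at 48 h.

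EGR1 had 68, 73 and 48 counts in the libraries labelled BTN1A1, against 149, 44 and 45 in EV. The groups overlapped: untreated EV was the highest library and treated EV the lowest. The log2 difference between the vectors was -0.19 (SE 0.45, edgeR adjusted p = 0.774). It was -1.34 in untreated cells, 0.62 at 24 h and 0.20 at 48 h.

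DUSP1 had 601, 388 and 384 counts in the libraries labelled BTN1A1, against 145, 446 and 506 in EV. Its counts were at least 3.09 times the 90th percentile of the background in every library. The log2 difference over the 3 conditions was 0.38 (SE 0.46, edgeR adjusted p = 0.573), and the untreated pair alone stood at 1.85 (95% counting interval 1.58 to 2.12), while the treated pairs stood at -0.31 and -0.29. The sign of the treated pairs turned with other scalings: it was 0.37 and 0.47 by library totals and 1.03 and 0.63 with equal medians.

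**Figure D1:**
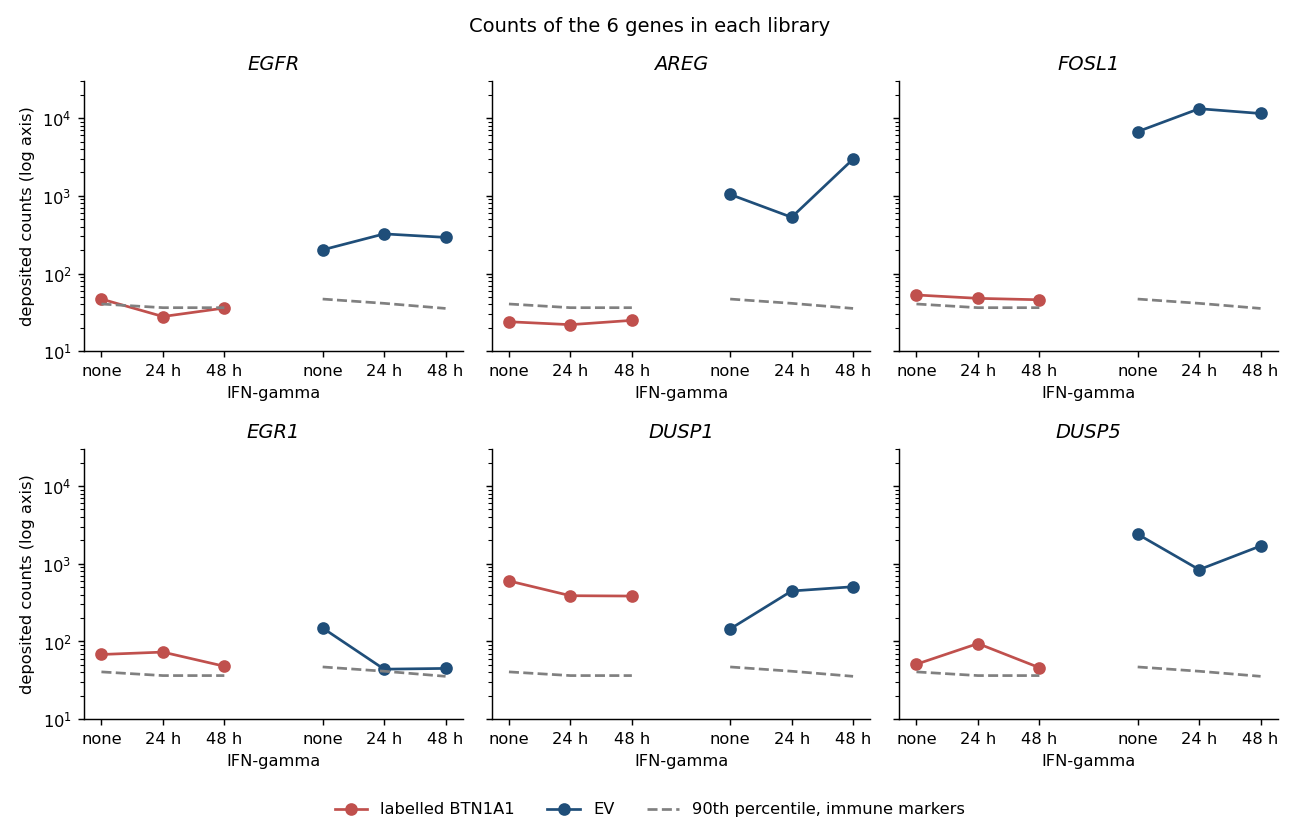
Deposited counts of the 6 genes (log axis) by library, with the libraries labelled BTN1A1 (red) left of the EV libraries (blue), each untreated and at 24 h and 48 h of interferon-gamma. Each point is 1 library and lines join libraries of 1 vector. The dashed line is the 90th percentile of 33 immune markers in the same library. EGFR, AREG, FOSL1 and DUSP5 lie at least 4.96-fold apart at each condition on the scaled counts between the vectors, and EGR1 and DUSP1 overlap.

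The scale of this comparison rests on the housekeeping genes, which themselves differed between the vectors: after scaling, their log2 differences ran from -2.43 to 1.59 untreated, from -1.498 to 1.40 at 24 h and from -1.72 to 1.63 at 48 h. The median log2 difference of all 669 genes was -0.32 with this scaling, 0.07 with TMM scaling and 0.74 with equal library medians. The calls were 78 higher and 205 lower, against 117 and 161 with TMM and 239 and 120 with equal medians. The 4 calls passed in all 12 alternatives, the smallest values being those with equal medians: -1.88 for EGFR, -4.66 for AREG, -6.68 for FOSL1 and -3.66 for DUSP5. EGR1 and DUSP1 had no settled direction: DUSP1 passed as higher (1.46, edgeR adjusted p = 0.0127) with equal medians and had a negative value in 2 alternatives, and EGR1 changed sign in 5. An exact paired permutation test over 3 pairs cannot go below p = 0.25, which is the value it gave for EGFR, AREG, FOSL1 and DUSP5.

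The rest of the pathway was read from lists chosen with earlier results of these data known. Over all 669 genes 30.6% were called lower and 11.7% higher, and EGFR, AREG, FOSL1 and DUSP5 also count in their lists. Of the 4 ERBB receptors and ligands measured, EGFR and AREG were lower in the libraries labelled BTN1A1, and neither the receptor ERBB2 (-0.14, SE 0.36) nor the ligand EGF (-0.73, SE 0.34) passed. EGF had 24 to 35 counts in the libraries labelled BTN1A1 and 42 to 49 in EV, near the background in both. Among genes of the RAS-ERK cascade, NRAS (1.504) and the adaptor SHC2 (0.997) were higher in the libraries labelled BTN1A1, and PRKCA (-1.54), a protein kinase C, and HRAS (-0.92) lower. The SHC2 counts in EV, 17 to 29, lay under the 90th percentile of the background. NRAS passed in all 12 alternatives, PRKCA in 10 of 12, HRAS in 7 of 12 and SHC2 in 7 of 11. HRAS failed with TMM scaling (adjusted p = 0.156) and turned sign with equal medians, to 0.14.

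Of 5 AP-1 and immediate early genes, FOSL1 and IER3, an early response survival factor (-4.38, SE 0.32), were lower and MYC was higher (0.86, SE 0.26). ATF3, a stress-induced partner of AP-1, stood at 1.57 (SE 0.67) and did not pass. Of 4 feedback inhibitors, DUSP5 and SPRY4, an inhibitor of the signal from receptor to ERK (-5.40, SE 0.40), were lower. The calls in these 2 small lists stand beside 30.6% called lower and 11.7% higher over all 669 genes. SPRY4 had 10, 8 and 11 counts in the libraries labelled BTN1A1, against 585, 328 and 310 in EV. It passed the filter on low counts only through EV, which favoured a lower value. DUSP1 and DUSP2 (-0.25, SE 0.44) did not pass, and DUSP2 was near background, at 11 to 18 counts in the libraries labelled BTN1A1 and 12 to 25 in EV.

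Of 14 tested secreted and cell cycle genes with known AP-1 or ERK control, 10 were lower in the libraries labelled BTN1A1 and 0 higher, with a list median of -2.55. Over all 669 genes 30.6% were lower and 11.7% higher, and the median was -0.32. They were THBS1 (-6.76), a matrix glycoprotein, the chemokines CXCL2 (-4.61), CXCL1 (-4.03) and CXCL8 (-3.39), the cytokines LIF (-4.47) and IL6 (-1.78), the collagenase MMP1 (-3.59), the cyclin CCND1 (-2.81), the integrin ITGA2 (-2.28) and the chromatin protein HMGA1 (-1.78). THBS1, CXCL2, CXCL1, CXCL8, LIF and MMP1 had 7 to 38 counts in the libraries labelled BTN1A1, under the 90th percentile of the background in each, so the size of their differences is set by that background. IL6, at 27, 21 and 37 counts there, lay around that percentile. THBS1, CXCL1 and MMP1 reached the filter of 20 scaled counts in 2 libraries only through EV, so the filter itself favoured a lower value for them. The count and the median of this list were not tested. The 4 that did not pass ran from -0.49 to 0.60. With equal medians 9 of the 14 were lower and 2 higher, and IL6 did not pass.

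Among 16 other receptor tyrosine kinases and growth factors, AXL (-5.04), VEGFC (-4.62), the HGF receptor MET (-3.04), the VEGF receptor KDR (-2.81) and PDGFB (-1.62) were lower and the stem cell factor receptor KIT (3.42) and FLT1 (1.74) higher. These calls, 5 lower and 2 higher, are near the shares over all genes, 30.6% and 11.7%. AXL, KDR and PDGFB had 11 to 23 counts in the libraries labelled BTN1A1 and KIT 13 to 30 in EV, all under the 90th percentile of the background. AXL, KDR and PDGFB passed the filter on low counts only through EV, which favoured a lower value. PDGFB passed in 7 of 11 alternatives and not with equal medians. Among PI3K-AKT-mTOR genes, DEPTOR (2.94), an mTOR inhibitor, was higher, and RPTOR (-1.32), a subunit of an mTOR complex, and PIK3CA (-0.91) lower. DEPTOR had 16 to 36 counts in EV, under the 90th percentile of the background. RPTOR passed in 9 of 12 alternatives and not with equal medians. PIK3CA passed in 6 of 12, failed with TMM scaling (adjusted p = 0.123) and turned sign with equal medians (0.15). None of 4 p38, JNK and stress kinase genes passed in edgeR's test at the adjusted threshold. At an unadjusted p under 0.05, 2 did. TMM scaling called 1 of the 4 higher, DESeq2 2 and equal medians 3.

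**Figure D2:**
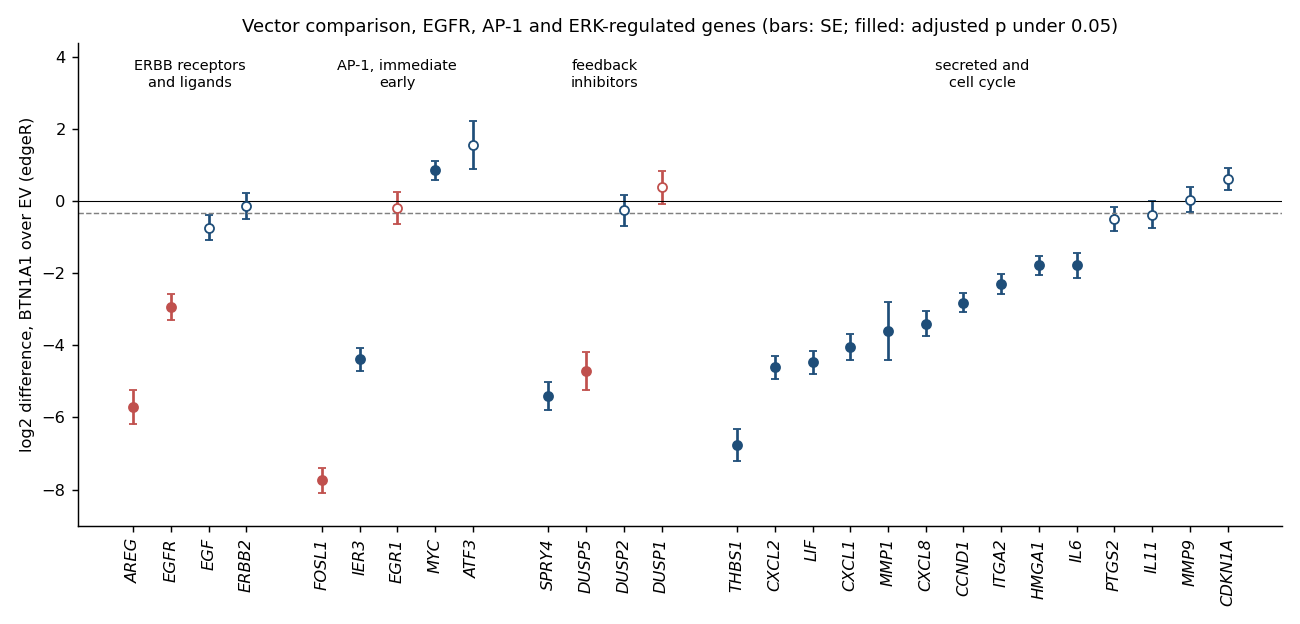
Log2 difference of scaled counts, libraries labelled BTN1A1 over EV, from edgeR for 4 gene lists (y axis, genes along the x axis). Red points are the 6 genes, bars are the SE, filled points have an adjusted p under 0.05 and the dashed line is the median of all genes, -0.32. EGFR, AREG, FOSL1 and DUSP5 are filled below 0 and EGR1 and DUSP1 are open. How far genes such as THBS1, AREG and SPRY4 lie below 0 is set by the background, since their counts in the libraries labelled BTN1A1 are under its 90th percentile.

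The second comparison asked how the genes responded to interferon-gamma, which is made by T and NK cells and acts through receptor-bound JAK kinases. In EV, DUSP1 rose and EGR1 fell, and EGFR, AREG, FOSL1 and DUSP5 did not pass over the 2 times together. In the libraries labelled BTN1A1 0 of 6 passed. The background was 10.3% called higher and 1.05% called lower of 669 genes in EV, and 1.05% higher and 0% lower in the libraries labelled BTN1A1, in edgeR's test with 24 h and 48 h taken as 2 treated samples. That test takes the spread of each single untreated library from the treated ones. Its p-values rest on the spread among these few libraries, part of which may be technical. That spread was largely shared over all genes, so a gene's own difference between 24 h and 48 h had little weight.

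In EV, untreated cells had 145 DUSP1 counts, the 24 h library 446 and the 48 h library 506. It rose by a log2 difference of 1.72 (SE 0.52, edgeR adjusted p = 0.0102), with 1.46 at 24 h and 1.95 at 48 h, and the counting interval of each time excluded 0. The EV libraries alone gave 1.72 (SE 0.54, edgeR adjusted p = 0.0119). The call ended without the 48 h EV library (1.46, adjusted p = 0.232 in edgeR) and with equal medians (1.40, adjusted p = 0.062). In the libraries labelled BTN1A1 it stood at 601, 388 and 384 counts, a difference of -0.42 (SE 0.47, edgeR adjusted p = 0.999).

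Untreated EV cells had 149 EGR1 counts, the 24 h library 44 and the 48 h library 45. It fell by 1.74 on the log2 scale (SE 0.54, edgeR adjusted p = 0.0127), to within 1.06 and 1.26 times the 90th percentile of the background, so the fall could not be followed further down. The EV libraries alone gave -1.74 (SE 0.43, edgeR adjusted p = 0.000495). The call ended without the 24 h EV library (-1.58, adjusted p = 0.404 in edgeR) and without the 48 h EV library (-1.92, adjusted p = 0.221). In the libraries labelled BTN1A1 EGR1 stood at 68, 73 and 48 counts and the difference was -0.0011 (SE 0.57). Its scaled level there spanned 1.06-fold over the 3 libraries, and 452 of 461 tested genes with at least 20 scaled counts in each of them spanned more. Its counts there were only 1.67, 2.01 and 1.32 times the 90th percentile of the background, so a fall could be followed only in part.

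AREG and DUSP5 differed in EV between the 2 treated times. Counts of AREG were 1042 in untreated cells, 530 at 24 h and 2970 at 48 h, and 48 h over 24 h was a log2 difference of 2.79 (95% counting interval 2.65 to 2.92). DUSP5 stood at 2400, 840 and 1694 counts, and 48 h over 24 h was 1.31 (1.19 to 1.43). Both were lowest at 24 h and higher again at 48 h, AREG above its untreated level and DUSP5 still below it. The housekeeping genes ran from -0.68 to 0.51 between these times, and with 1 library per time no test could be made. Over both times AREG had a difference of 0.85 (SE 0.50, edgeR adjusted p = 0.391), which averages -1.14 at 24 h and 1.65 at 48 h, and DUSP5 one of -0.87 (SE 0.47, adjusted p = 0.325). Culture time, which differs between the 24 h and the untreated library, cannot be told apart from treatment at 24 h.

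EGFR in EV was 0.52 higher at 24 h and 0.67 at 48 h on the log2 scale, and FOSL1 0.82 and 0.92. The counting intervals exclude 0 for both genes at each time, but neither passed over the 2 times: EGFR had 0.60 (SE 0.51, edgeR adjusted p = 0.692) and FOSL1 0.87 (SE 0.56, adjusted p = 0.473). These intervals do not cover the choice of scaling. EGFR counts of 202, 324 and 292 rose much as the total counts of the EV libraries did, at 286341, 441611 and 403510. FOSL1 stood within 1.07-fold between 24 h and 48 h. In the libraries labelled BTN1A1 the differences were -0.32 for EGFR, 0.19 for AREG, 0.03 for FOSL1 and 0.59 for DUSP5. None of these passed. Counts there were near the background, except for DUSP5 at 24 h. That was its highest library, at 94 counts, 2.58 times the 90th percentile of the background.

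Counted as 1 library over another, at least 2-fold and with no test, EV at 24 h had DUSP1 higher and AREG, EGR1 and DUSP5 lower, where 12.4% of 662 genes were higher and 6.8% lower. At 48 h EV had AREG and DUSP1 higher and EGR1 lower, against 14.7% higher and 3.42% lower of 673 genes. From 48 h over 24 h in EV, AREG and DUSP5 were higher and 0 of the 6 lower, against 5.23% and 1.11% of 631 genes. In the libraries labelled BTN1A1 0 of the 6 genes passed 2-fold, where 3.05% of 558 genes were higher and 3.23% lower at 24 h, 4.86% of 638 higher and 0% lower at 48 h, and 7.02% of 641 higher and 0.78% lower for 48 h over 24 h. Between the vectors, the untreated libraries had DUSP1 higher in the library labelled BTN1A1 and the other 5 lower, against 11.3% and 27.8% of 672 genes. EGFR, AREG, FOSL1 and DUSP5 were lower by that measure at 24 h, where 9.25% of 627 genes were higher and 32.4% lower, and at 48 h, where 13% of 678 were higher and 28% lower.

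**Figure D3:**
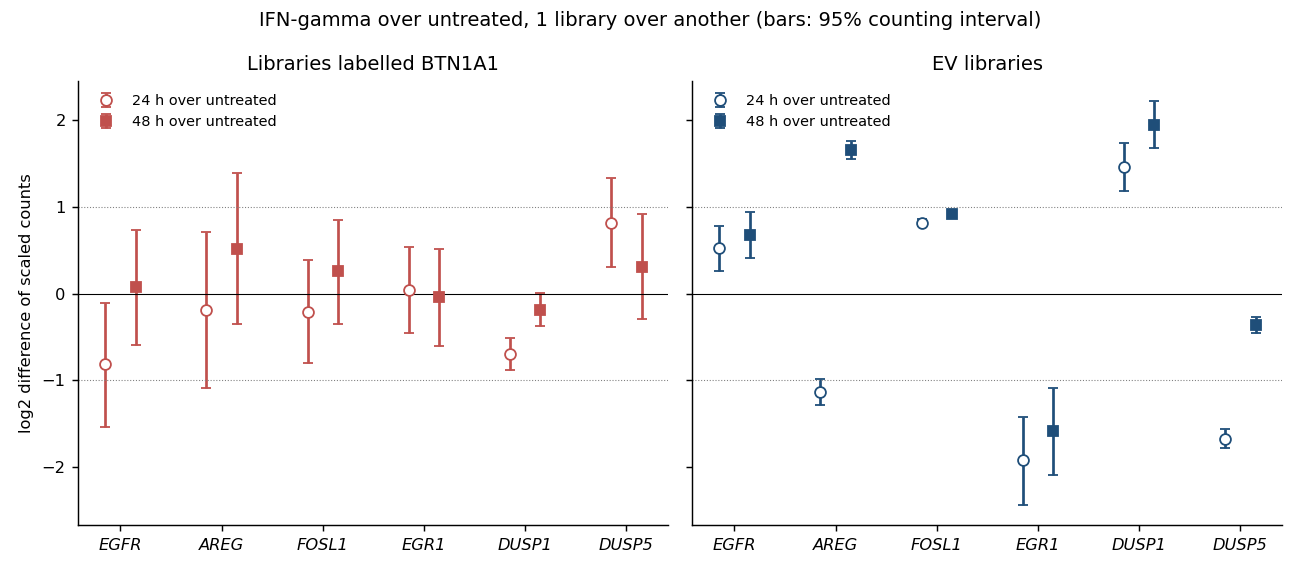
Log2 difference of scaled counts, interferon-gamma over untreated, with 1 library over another, for the libraries labelled BTN1A1 (left) and EV (right). Open circles are 24 h, filled squares 48 h, bars are 95% counting intervals, which leave out variation between cultures, and dotted lines mark 2-fold. In EV, DUSP1 lies above 1 and EGR1 below -1 at each time, AREG changes side between the times, and in the libraries labelled BTN1A1 no gene passes 2-fold.

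In the same list of 5 AP-1 and immediate early genes, ATF3 rose in EV by 2.64 (SE 0.56, edgeR adjusted p = 4.53e-05), and mostly at 48 h, with counts of 69 in untreated cells, 117 at 24 h and 690 at 48 h. Its call held in 5 of 11 alternatives and not with TMM scaling, equal medians or DESeq2 (adjusted p = 0.128, 0.159 and 0.436). MMP1 fell in EV, with a difference of -3.06 (SE 0.53, edgeR adjusted p = 2.59e-07). IER3, MYC, SPRY4 and ERBB2 did not pass in either vector. No further gene of the 8 lists passed in EV, and 0 passed in the libraries labelled BTN1A1, where edgeR called 7 genes of 669 in all and 17 stood at an unadjusted p under 0.05.

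Pooling the vectors, edgeR called 0 of the 6 genes at 24 h and 0 at 48 h, where it called 0% and 0.897% of 669 genes, with 58 and 63 genes at an unadjusted p under 0.05. DESeq2 and limma also called 0 of the 6 at each time. The largest values were -0.996 (SE 0.55) for EGR1 at 24 h and 1.22 (SE 0.49) for AREG at 48 h. AREG alone had an unadjusted p under 0.05, at 48 h (adjusted p = 0.465 in edgeR). Without the untreated library labelled BTN1A1 3 of the 6 passed at each time: DUSP1 higher and EGR1 and DUSP5 lower at 24 h, and DUSP1 and AREG higher and EGR1 lower at 48 h.

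The third comparison asked whether the response differed between the vectors. The DUSP1 response in the libraries labelled BTN1A1 was below that in EV: the log2 difference of the 2 responses was -2.14 (SE 0.69, edgeR adjusted p = 0.0454). It was the only one of the 6 to pass, where 4.48% of 669 genes passed, 4.19% in this direction and 0.299% in the other. The call lay at the threshold: it held in 2 of 10 alternatives, DESeq2 and the fit without the 48 h library labelled BTN1A1, though the value stayed between -2.42 and -1.88. EGR1 (1.74, SE 0.81, edgeR adjusted p = 0.333) and DUSP5 (1.46, SE 0.71, adjusted p = 0.376) had values in the other direction and did not pass, nor did EGFR (-0.92), FOSL1 (-0.83) and AREG (-0.66). In the lists, ATF3 (-3.49, SE 0.71) and MMP1 (3.85, SE 0.97) also passed, in 4 and 8 of the 10 alternatives. MMP1 had 7, 9 and 12 counts in the libraries labelled BTN1A1, under the background, so no response could be measured there and its value restates the fall in EV. Because of the marker pattern above, this difference too may be one between cultures of different origin.

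**Figure D4:**
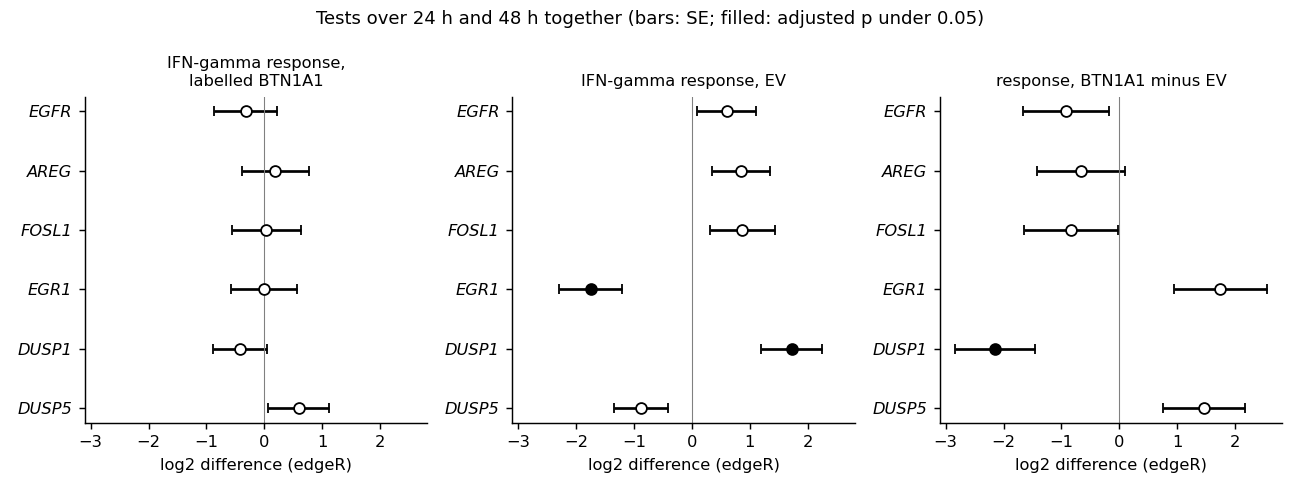
Log2 differences from edgeR for the 6 genes: response to interferon-gamma in the libraries labelled BTN1A1 (left), in EV (middle) and the first minus the second (right). Bars are the SE and filled points have an adjusted p under 0.05. DUSP1 (1.72) and EGR1 (-1.74) are filled in EV, DUSP1 (-2.14) in the difference, and no gene in the libraries labelled BTN1A1.

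Likeness of pattern was measured by Pearson's r of log2 scaled counts over the 6 libraries, which fall into 2 clusters by vector, so r mostly restates that split for the genes that differ between the vectors. For FOSL1, 86 of 668 other genes had an r of at least 0.95, for EGFR 82, for AREG 61 and for DUSP5 50. The nearest to EGFR were MET, IFITM2 and ITGA6 (r = 0.996, 0.994 and 0.993), to AREG TNFRSF1A, HIF1A and JAG1 (0.996, 0.991 and 0.991), to FOSL1 CXCL8, BCL2L1 and AXL (0.9996, 0.999 and 0.999) and to DUSP5 FADD, FZD8 and WNT5A (0.988, 0.986 and 0.986). JAG1 shared with AREG the low count at 24 h, at 1032, 533 and 1153 counts in EV. DUSP1 stood apart, with the mitotic phosphatase CDC25C (0.975) as the only gene at 0.95 or more, followed by HLA-DMB (0.925) and HLA-DQB1 (0.910), class II genes that also had higher counts with interferon-gamma in EV. For EGR1 0 genes reached 0.95. The nearest were CD3D (0.930), CD28 (0.929) and COL11A1 (0.927), whose counts of 13 to 64 lie at the background, and whose part in the EGR1 values was not tested.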

How the data were processed

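Total RNA from 6 cultures was hybridised to the panel, per the labels' protocols. The values deposited by the authors are whole-number barcode counts, with a column for each library. The authors' steps after hybridisation are not given in the sources used here, and no background was subtracted. Scaling used 20 panel housekeeping genes (their geometric mean), and 669 genes reaching 20 scaled counts in 2 or more libraries were tested, all 6 members among them, each by its level in either vector. The tests were edgeR 4.0.16 (R 4.3.3) quasi-likelihood fits on the counts with Benjamini-Hochberg adjustment at 0.05: an additive model (vector, condition) and an interaction model (vector by treatment), each with 2 residual degrees of freedom. In the interaction model the p-values rest mostly on a spread shared over all genes, not on each gene's own. The SE comes from the size of the log2 difference and its F statistic, so it restates the test. Differences of 1 library over another carry exact conditional 95% intervals for counting error only. The labels carry no replicate numbers. Members, lists and named genes (the 6, list members past the threshold, all of the ERBB, AP-1 and feedback lists, the 3 nearest by r) were chosen with earlier results of these data known. The fits were tested on simulated data. A true log2 difference of 1 was recovered in 12.9% of changed genes for the response in EV. It was recovered in 8.96% for the response in the libraries labelled BTN1A1 and 7.32% for the difference of responses. A true value of 2 was recovered in 70.7%, 66.7% and 25%, so a gene that did not pass may still have changed. The simulated housekeeping genes varied by counting error only, unlike those measured. Changed genes had a mean of at least 50 scaled counts, the same in both vectors before the change was added. The rates may thus be too high for genes near the background in 1 vector, such as EGFR, AREG and FOSL1 in the libraries labelled BTN1A1. Alternatives were TMM scaling, equal medians, DESeq2 1.42.0, limma 3.58.1, a minimum of 50 or no filter and each library left out, and fits of 1 vector alone were added after seeing the data. Names matched RefSeq GRCh38.p14 for all 6 members. Results for some genes are not reported here.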

Additional observations from a re-analysis of the deposited data

Results flagged for a closer look

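Of the genes in the lists, 3 passed the interaction test in edgeR for a different response to interferon-gamma in the 2 vectors, among 30 of all 669 genes: DUSP1 (log2 difference -2.14, BTN1A1 minus EV), ATF3 (-3.49) and MMP1 (3.85). The call held in only 2 of 10 alternatives for DUSP1 and 4 of 10 for ATF3, against 8 of 10 for MMP1. MMP1 counts were 7, 9 and 12 in the libraries labelled BTN1A1, under the background, so that no response could be measured there, and 434, 57 and 48 in EV. ATF3 counts were 1063, 280 and 665 in the libraries labelled BTN1A1 and 69, 117 and 690 in EV.

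DUSP5 had log2 values above 0 in the libraries labelled BTN1A1 (0.82 at 24 h and 0.31 at 48 h) and below 0 in EV (-1.67 and -0.36). The mean log2 response differed by 1.58. In the same pairs labelled BTN1A1 the housekeeping genes ran from -0.66 to 1.54 at 24 h and from -0.17 to 0.17 at 48 h. In EV they ran from -0.45 to 0.33 and from -0.88 to 0.48. At 48 h in the library labelled BTN1A1 the 95% counting interval, -0.30 to 0.91, included 0, with 46 counts against 51 in untreated cells. The interaction test did not pass for DUSP5 (edgeR adjusted p = 0.376), and the split by direction itself was not tested. With equal medians DUSP5 at 48 h in the library labelled BTN1A1 turned sign, to -0.12.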

How the results depend on the processing

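Of the 6 genes, 4 passed between the vectors in every alternative but equal medians, where DUSP1 made 5. With interferon-gamma in EV 2 passed, except 1 with equal medians (EGR1), and 0 to 2 with 1 library left out. In the difference of responses 1 passed, but 0 with TMM scaling, equal medians, limma, a minimum of 50 or no filter, and 0 to 1 with 1 library left out; DUSP1's adjusted p ran from 0.0114 to 0.485 over these alternatives. At 24 h and at 48 h over both vectors the counts were 0 to 3 with 1 library left out, the 3 arising without the untreated library labelled BTN1A1; the cause was not tested. In the libraries labelled BTN1A1 0 passed throughout. Of 420 values of single genes under alternatives, 12 lost and 7 gained the threshold and 0 called values turned sign. Of 108 library pair values under other scalings, 62 left the counting interval and 0 pairs past 2-fold turned sign. Over all genes in EV, 76 calls (69 higher, 7 lower) became 115 with equal medians (60 and 55) and 48 without the 48 h EV library. The 7 calls in the libraries labelled BTN1A1 ran from 0 to 9, the 30 in the difference from 13 to 38, the 0 at 24 h from 0 to 86 and the 6 at 48 h from 0 to 95. The response in EV or the difference could not be fitted without the untreated EV library, nor the response in the libraries labelled BTN1A1 or the difference without their untreated library. No analysis paired by replicate number was possible because the labels carry none, and the vector test pairs the libraries by condition. Depth limits EGFR, AREG, FOSL1 and DUSP5 in the libraries labelled BTN1A1, whose counts lie near the background, apart from DUSP5 at 24 h. It also limits THBS1, CXCL1, CXCL2, CXCL8, LIF, MMP1, SPRY4, AXL, KDR and PDGFB there, whose counts lie under the 90th percentile of the background. The counts of IER3 and IL6 there lie around that percentile, and a fall of EGR1 there could be followed only in part.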
